A study of Mus musculus with 24 samples.

Results

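The hepcidin gene Hamp, its paralog Hamp2 and 8 further genes of iron handling were followed through liver, cerebellum and testes of mice without Thumpd1. The 10 genes, Hamp, Hamp2, Id1, Smad7, Bmp6, Slc40a1, Tfrc, Tfr2, Fth1 and Ftl1, were taken by symbol from a table of 55450 genes, and each symbol matched 1 row. Total RNA had been sequenced from 4 wild-type (WT) and 4 knockout (KO) libraries of each tissue, 24 libraries in 6 groups. KO mice carried a CRISPR-Cas9 deletion in Thumpd1, made with cuts in exons 1 and 4 and kept on a C57BL/6 background, and controls were in general littermates of the same age. Per the labels the mice were 6 to 12 weeks old, of either sex and housed at 25 °C, and no treatment is named. The question of the series was how the loss of Thumpd1, a partner of the enzyme Nat10 in acetylating cytidine in tRNA, alters gene expression and stress signaling in vivo. Several edited lines were made, and which line gave these libraries is not stated in the labels.

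Hepcidin is the peptide hormone that sets the level of iron in blood. Hepatocytes make it from Hamp, it binds ferroportin, the only known cellular iron exporter, which is encoded by Slc40a1, and ferroportin is then taken up and degraded, so that less iron leaves macrophages, gut cells and hepatocytes. When liver iron rises, endothelial cells release BMP6, hepatocytes answer through SMAD proteins, and Hamp, Id1 and Smad7 are transcribed, with SMAD7 acting as an inhibitor of the same pathway. Transferrin receptor 1 (Tfrc) brings transferrin iron into cells, transferrin receptor 2 (Tfr2) is part of the iron sensor of hepatocytes, and ferritin, built of heavy (Fth1) and light (Ftl1) chains, stores iron. Mice have a second hepcidin gene, Hamp2, whose peptide has not been found to act on ferroportin in the way that Hamp does. Cells also control several of these mRNAs directly: iron regulatory proteins bind a short hairpin, the iron-responsive element, and thereby block translation from the 5′ end or protect the mRNA at the 3′ end.

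Thumpd1 was checked first. It lay between 9.19 and 10.1 CPM (expected counts scaled to the same library total) in the WT liver libraries and at or under 0.106 CPM in the KO liver libraries. In cerebellum it lay at or under 0.113 CPM in KO against 21.8 to 24 CPM in WT, and in testes at 0.768 to 1.14 CPM against 24.3 to 26.3 CPM. The labels of all 24 libraries thus fitted the targeted transcript, with more residual counts in testes. Markers of each labelled tissue were present in it, with hepatocyte markers summing to 45521 to 60270 CPM in WT and 55525 to 80633 CPM in KO liver, granule and Purkinje cell markers to 1321 to 1579 CPM in cerebellum and spermatid markers to 6114 to 9097 CPM in testes. Of the 5 hepatocyte markers limma-voom called 1 higher in KO (Apoa1, 0.32, adjusted p = 0.0303), edgeR 0 and DESeq2 2, with 1 at an unadjusted p under 0.05, and their part in the liver values below was not tested. Y-linked genes summed to at least 56.7 CPM in every library, so each held RNA from male mice. The sums were 62 to 64 CPM in WT and 67.7 to 80.8 CPM in KO liver. In cerebellum they were 194 to 214 CPM in WT and 148 to 176 CPM in KO. In testes they were 56.7 to 71.5 CPM in WT and 69.8 to 82.9 CPM in KO. Of the 4 genes, limma-voom called 0 in liver, 2 lower in cerebellum (Ddx3y and Eif2s3y) and 2 higher in testes. The part of these differences in the values below was not tested. Depth ran from 16353797 to 37889615 expected counts per library, and a few abundant noncoding RNAs (7SK, 7SL and RNase P RNA and 2 ribosomal RNA fragments) took 17.5% to 31% of a liver library against 4.56% to 7.41% elsewhere. In liver, 3 of the 4 pairs of libraries with neighbouring numbers lay closer to each other than any other pair of their group. The median chi-square per gene was 0.882 to 2.61 for the 4 neighbouring pairs and 2.21 to 4.78 for the other 8, with WT 3 and 4 at 2.61, all more than sampling noise alone gives, so each library was kept as a sample, and results are also given with neighbours summed to 1 sample. The study calls the 4 libraries of a group biological replicates, the labels do not tie them to single animals, and the p-values measure the spread between these libraries. In tissue RNA, fewer cells of a type and less RNA per cell cannot be told apart.

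The liver values turn on 2 near copies, so it was counted how far their sequences differ. Hamp (ENSMUSG00000050440.8) lies at chr7:30942368-30944032 and Hamp2 (ENSMUSG00000056978.8) at chr7:30922372-30924681 of mm10, both on the minus strand. The coding parts, 252 bases each, were read from 1 GENCODE M21 transcript per gene and aligned. The alignment held no gap, and 236 of 252 bases (93.7%) were identical. The first 80 bases were the same, and 16 substitutions, most of them towards the stop codon, on the side that encodes the mature peptide, set the copies apart. Over the whole transcripts, 388 bases were identical and the longest shared run was 87 bases. Of the 361 windows of 50 bases in the Hamp transcript, 60 (16.6%) also occurred in a Hamp2 transcript. A read that falls in the shared runs cannot by itself be given to either gene, and the counting software divides such reads by estimate.

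The stretches before 1 annotated transcript start of each gene are shown next because a BMP and an inflammatory element of hepcidin promoters lie there. They are RefSeq sequences of GRCm38.p6, which is mm10, on the minus strand, chr7:30944033-30944279 for Hamp and chr7:30924182-30924431 for Hamp2. The Hamp stretch lies directly before the gene span given above. The Hamp2 stretch lies inside its gene span, which reaches 30924681. The start used for Hamp2 is therefore not the outermost start of that gene, and the bases before the outermost start were not examined. Capitals mark the motifs spelled out after the sequences.
Hamp: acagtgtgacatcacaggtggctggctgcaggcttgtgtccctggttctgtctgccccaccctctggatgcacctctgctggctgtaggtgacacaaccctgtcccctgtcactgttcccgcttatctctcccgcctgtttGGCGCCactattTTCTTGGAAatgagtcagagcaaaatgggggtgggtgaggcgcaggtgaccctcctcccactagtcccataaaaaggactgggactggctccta
Hamp2: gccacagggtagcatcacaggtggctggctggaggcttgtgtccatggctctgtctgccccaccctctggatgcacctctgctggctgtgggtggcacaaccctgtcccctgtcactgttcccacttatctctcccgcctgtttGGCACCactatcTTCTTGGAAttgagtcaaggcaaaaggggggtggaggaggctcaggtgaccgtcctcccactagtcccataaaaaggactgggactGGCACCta
Over these 247 and 250 bases, 227 aligned bases were identical. The letters GGCGCC, the core of the BMP-responsive element described for hepcidin genes, started 106 bases before the annotated start of Hamp. At the aligned place Hamp2 had GGCACC, a difference written G145A when counted from 1 at the 5′ end of the Hamp stretch. Hamp2 held GGCACC once more 8 bases before the start used here. TTCTTGGAA, which matches the known STAT3 site of hepcidin promoters, started 94 bases before the transcript start in both. Searched on both strands in the 250 bases before 32817 RefSeq starts, GGCGCC was found in 9.59%, GGCACC in 12.9% and TTCTTGGAA in 0.366%. These matches are letters in a window and were not tested as binding sites.

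Hamp2 rose in KO liver and Hamp did not pass the test. Hamp2 measured 6.05, 6.29, 5.23 and 5.3 CPM in WT libraries 1 to 4 and 18.8, 21.3, 16.8 and 19.1 CPM in KO libraries 5 to 8. All 4 KO libraries were above all 4 WT libraries, and the spread within each group was small beside the gap. The WT mean of Hamp2 was 5.72 ± 0.533 CPM, and the KO mean was 19 ± 1.84 CPM (SD, n = 4). The fitted difference was 1.69 ± 0.111 log2 units (SE, adjusted p = 6.24e-05 in limma-voom), and Hamp2 ranked 2 by p among the 12816 genes tested in liver. Hamp measured 272, 270, 144 and 99.1 CPM in WT and 82.8, 76.5, 207 and 228 CPM in KO. The 2 groups overlapped widely, since each held a pair of high libraries, WT 1 and 2 and KO 7 and 8, and a lower pair. Its mean was 196 ± 88.2 CPM in WT and 149 ± 80.3 CPM in KO, with a log2 change of -0.39 ± 0.366 (95% interval -1.20 to 0.41, adjusted p = 0.568), so that neither a fall by more than 1 log2 unit nor a small rise lay outside the interval. With single libraries left out the change ran from -0.63, without WT 4 or KO 8, to -0.16, without KO 6. The low pairs were also the libraries with more of the abundant noncoding RNAs, 23.1% and 31% in WT 3 and 4 and 27.2% and 26.4% in KO 5 and 6, against 17.5% to 19% in the other 4. With these RNAs left out of the library size, Hamp still measured 329, 334, 187 and 143 CPM in WT and 114, 104, 255 and 277 CPM in KO.

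Because shared reads could be given to either copy, both genes were also summed. Hamp plus Hamp2 measured 278, 276, 149 and 104 CPM in WT and 102, 97.8, 224 and 248 CPM in KO. The means, 202 ± 88.7 and 168 ± 79.2 CPM (SD, n = 4), did not differ beyond this spread (exact permutation test, two-sided p = 0.514). The share of the summed counts given to Hamp2 was 2.18%, 2.28%, 3.51% and 5.08% in WT and 18.5%, 21.8%, 7.49% and 7.71% in KO. Every KO share was above every WT share, with means of 3.26 ± 1.35% and 13.9 ± 7.37% and an exact permutation p of 0.0286, the smallest that 4 libraries against 4 can give. The 2 highest shares belonged to KO 5 and 6, the KO libraries in which Hamp was low. The exons of Hamp2 overlap those of the noncoding gene Gm44662 on the opposite strand, and Gm44662 had 0 counts in all 8 liver libraries.

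**Figure D1:**
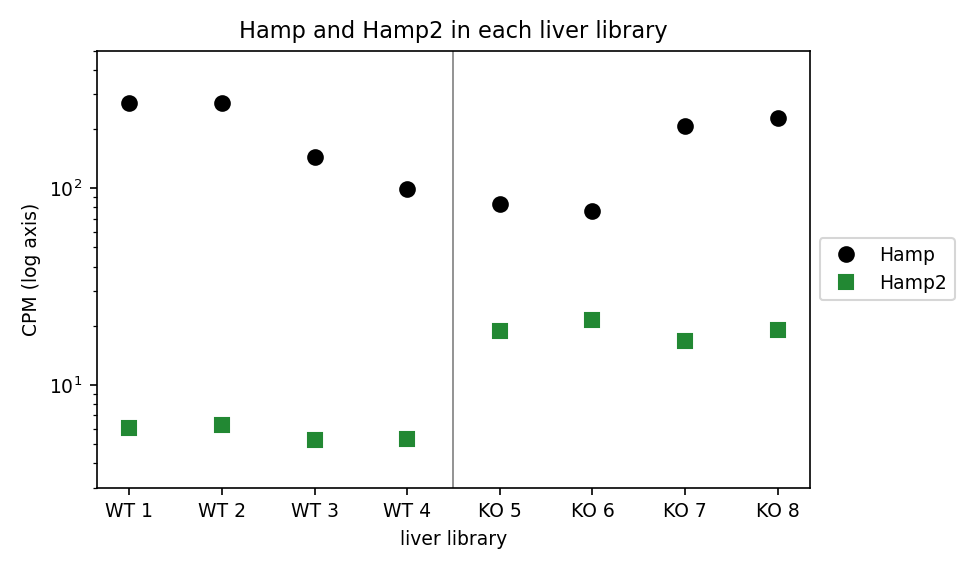
CPM of Hamp (circles) and Hamp2 (squares) in each of the 4 WT and 4 KO liver libraries, on a log axis, 1 point per library. Hamp2 lies at 5.23 to 6.29 CPM in WT and 16.8 to 21.3 CPM in KO, while the Hamp libraries of both genotypes spread from 76.5 to 272 CPM.

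The place of these genes on the genome was also described, since Thumpd1, Hamp, Hamp2 and Ftl1 all lie on chromosome 7. Hamp2 and Thumpd1 are 88.8 Mb apart. In liver, 56 of 962 genes tested on chromosome 7 were called (5.82%), against 5.91% on the other chromosomes, and 10 of 132 genes within 5 Mb of Hamp2 were called (4 higher and 6 lower).

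Of the readouts of BMP signaling, Id1 rose in KO liver. Id1 encodes an inhibitor of basic helix-loop-helix factors and is a direct SMAD target in hepatocytes. It measured 4.46, 5.37, 3.67 and 2.37 CPM in WT and 6.16, 9.31, 11.6 and 10.3 CPM in KO. The groups did not overlap, although KO 5 lay close to WT 2, and the log2 change was 1.26 ± 0.228 with an adjusted p of 0.0106. Smad7, the inhibitory SMAD, measured 27.7, 28, 24.2 and 26.5 CPM in WT and 32.9, 34.4, 28.8 and 30.6 CPM in KO. Here too every KO library was above every WT library, but the log2 change of 0.26 ± 0.0882 did not pass (adjusted p = 0.111). With the abundant noncoding RNAs left out of the library size, WT 4 (38.4 CPM) lay above KO 7 (35.5 CPM) and KO 8 (37.1 CPM). On that scale KO 5 and 6 stayed above all WT libraries. Bmp6, the ligand, measured 8.37, 8.9, 8.46 and 5.74 CPM in WT and 7.11, 6.5, 7.86 and 6.31 CPM in KO. Its groups overlapped, with WT 4 below all KO libraries, and the log2 change was -0.19 ± 0.129 (adjusted p = 0.429). Bmp6 shares 224 exonic bases with Txndc5 on the opposite strand, and the strand setting of the counting is not given in the sources used here, so its counts are uncertain. Markers of sinusoidal endothelial cells, which make BMP6, summed to 162 to 198 CPM in WT and 167 to 241 CPM in KO liver, with 0 of 5 markers called by limma-voom, edgeR or DESeq2 and 2 at an unadjusted p under 0.05.

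Of 23 further genes of the BMP and SMAD arm of hepcidin control, 22 were tested in liver, 1 rose and 1 fell, where 5.91% of all genes were called. EdgeR called 1 and DESeq2 2 of them, with 6 at an unadjusted p under 0.05, as were 2981 of all 12816 genes. Their median log2 change was 0.04 against 0.00 for all genes tested. Over all genes, edgeR and DESeq2 called 807 and 1408 of 12816 in liver. They called 1060 and 1335 of 16225 in cerebellum, and 4442 and 5039 of 19329 in testes. Smad6, another inhibitory SMAD and target of the pathway, fell, with a WT mean of 15 ± 0.479 CPM and a KO mean of 10.8 ± 0.568 CPM (-0.46 ± 0.0915 log2 units, adjusted p = 0.0152). Id2, a relative of Id1, rose from 63.3 ± 5.2 to 72.9 ± 4.15 CPM (0.24 ± 0.0614, adjusted p = 0.047). The libraries of the 2 genotypes did not overlap for either gene. Thus Id1 and Id2 were higher and Smad6 lower, while Smad7 and Bmp6 did not pass.

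In a list of 12 other regulators acting on Hamp, which shares Fgl1 with the BMP and SMAD list and was tested in full in liver, 1 rose and 1 fell, where 5.91% of all genes were called, with a median log2 change of 0.10. EdgeR called 1 and DESeq2 3 of them. Socs3, the feedback inhibitor of STAT3 signaling, fell, with a WT mean of 11 ± 1.9 CPM and a KO mean of 5.55 ± 2.06 CPM (-0.95 ± 0.224 log2 units, adjusted p = 0.0327), with no overlap between the genotypes. Creb3l3, a liver transcription factor of the endoplasmic reticulum that can act on Hamp, rose from 284 ± 26 to 318 ± 14.3 CPM (0.24 ± 0.0497, adjusted p = 0.0181).

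The 4 members whose mRNA carries an iron-responsive element are shown by that hairpin, which is how cellular iron reaches Slc40a1, the ferritins and Tfrc after transcription. In each run the capitals mark the bulged C and the 6-base loop, and the sequences are from GENCODE M21 transcripts of mm10, on the minus strand for Slc40a1 and Ftl1 and the plus strand for Fth1 and Tfrc.
Slc40a1, 5′ UTR, chr1:45925466-45925492: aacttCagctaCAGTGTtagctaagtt
Fth1, 5′ UTR, chr19:9982733-9982759: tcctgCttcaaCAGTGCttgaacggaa
Ftl1, 5′ UTR, chr7:45459780-45459806: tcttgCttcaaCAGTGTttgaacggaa
Tfrc, 3′ UTR, chr16:32631220-32631246: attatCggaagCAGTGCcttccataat
Tfrc, 3′ UTR, chr16:32631599-32631625: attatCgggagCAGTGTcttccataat
Tfrc, 3′ UTR, chr16:32631664-32631690: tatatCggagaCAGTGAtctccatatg
Tfrc, 3′ UTR, chr16:32631711-32631737: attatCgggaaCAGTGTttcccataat
The search asked for CAGTGN in the loop with a last base other than G, a C bulge and at least 9 of 10 stem pairs, with G and T allowed to pair. It found the element in 24 of 21877 protein-coding genes (0.11%), and 4 of the 10 genes followed here were among them. By this search Slc40a1 and the ferritin genes had a single element at the 5′ end, and Tfrc had 4 at the 3′ end. Elements that depart from these rules would be missed.

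Ferroportin mRNA (Slc40a1) lay just outside the threshold in liver. Slc40a1 measured 117, 114, 88.7 and 80.6 CPM in WT and 71.7, 68.3, 81.1 and 85.2 CPM in KO. WT 1 and 2 were above every KO library, and WT 3 and 4 lay among or close to them. With the abundant noncoding RNAs left out of the library size, the groups did not overlap. The lowest WT library was then WT 3 at 115 CPM and the highest KO library KO 8 at 103 CPM. The log2 change was -0.34 ± 0.0895 (95% interval -0.54 to -0.14, adjusted p = 0.0503 in limma-voom). It passed with TMM factors (adjusted p = 0.0359), in edgeR (0.0344), in DESeq2 (0.00433) and with sample weights (0.0129), but not without the filter (0.101) or with neighbouring libraries summed (0.492), and the adjusted p ran from 0.0339 to 0.142 when single libraries were left out. Macrophages are a main site of ferroportin, and macrophage markers summed to 172 to 218 CPM in WT and 192 to 218 CPM in KO liver.

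The transferrin receptors did not pass in liver, except Tfrc with sample weights (-0.75, adjusted p = 0.0433). Tfrc measured 15.9, 16.7, 7.96 and 10.6 CPM in WT and 9.62, 11.4, 7.89 and 7.27 CPM in KO. The WT pair 1 and 2 stood above the other 6 libraries, which overlapped, and the log2 change was -0.52 ± 0.225 (adjusted p = 0.196). Tfr2 measured 448, 450, 436 and 381 CPM in WT and 315, 315, 462 and 430 CPM in KO. KO 5 and 6 were lowest, KO 8 lay among the WT libraries and KO 7 just above them, and the log2 change was -0.13 ± 0.0873 (adjusted p = 0.408). Erythroid cells carry much transferrin receptor 1, and the 6 red cell markers in the table summed to 113 to 164 CPM in WT and 104 to 128 CPM in KO liver. Of these, 3 were tested in liver and 0 called by limma-voom, edgeR or DESeq2, with 0 at an unadjusted p under 0.05. The part of these markers in the Tfrc values was not tested.

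Of the ferritin chains, the light chain fell in KO liver. Ftl1 measured 3980, 3994, 3350 and 2655 CPM in WT and 2588, 2536, 2767 and 2810 CPM in KO. WT 1 to 3 were above all KO libraries, WT 4 lay among them, and the log2 change was -0.41 ± 0.0802 with an adjusted p of 0.0145. With the abundant noncoding RNAs left out of the library size, the groups did not overlap. The lowest WT library was then WT 4 at 3845 CPM and the highest KO library KO 5 at 3554 CPM. Fth1 measured 618, 635, 595 and 506 CPM in WT and 460, 452, 585 and 633 CPM in KO. Its groups overlapped, and the log2 change of -0.18 ± 0.0679 did not pass (adjusted p = 0.14). The ratio of Ftl1 to Fth1 counts, which is not corrected for length and is compared only between libraries, was 5.25 to 6.43 in WT and 4.44 to 5.63 in KO liver. Ftl1 has processed copies, of which Ftl1-ps1 measured 50.1 to 79.9 CPM in WT and 39.2 to 54.8 CPM in KO liver. Summed with its copies, Ftl1 measured 3560 ± 650 CPM in WT and 2720 ± 139 CPM in KO, and the call was kept. Ftl1 also shares 355 exonic bases with Gm10252 on the opposite strand. Without WT 1 the adjusted p of Ftl1 was 0.058 and without WT 2 it was 0.0557, and with neighbouring libraries summed it was 0.448.

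**Figure D2:**
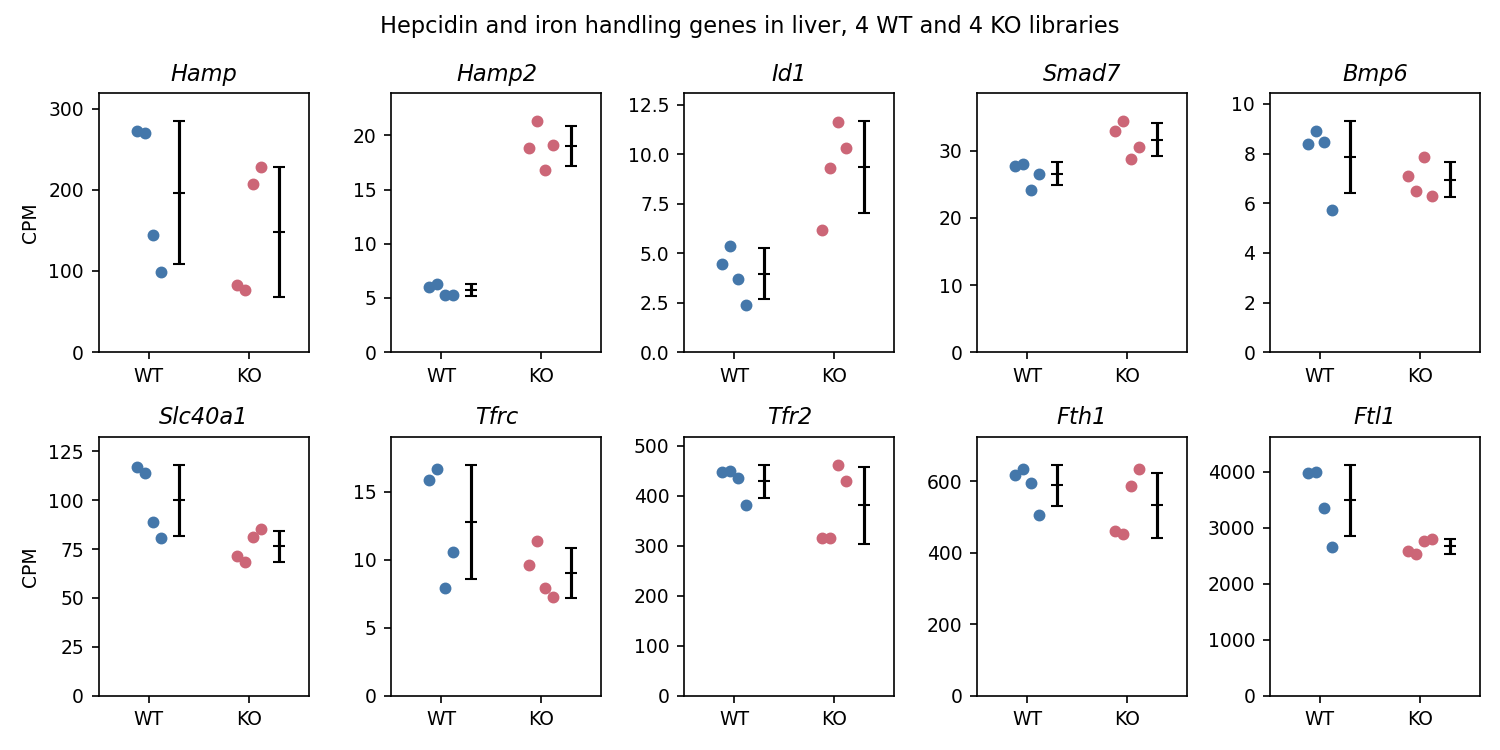
CPM of the 10 genes in liver, with a panel per gene, axes from 0, 1 point per library and the mean with its SD (n = 4) beside the points. Hamp2, Id1 and Smad7 are the genes whose WT and KO points do not overlap.

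In all, 3 of the 10 genes were called in liver, 2 higher (Hamp2 and Id1) and 1 lower (Ftl1). Over all 12816 genes tested, 5.91% were called, 2.79% higher and 3.12% lower. At an unadjusted p under 0.05 were 7 of the 10, as were 2981 of all 12816 genes. The 10 genes and the further gene lists were chosen with earlier results of these data known. Their counts beside all genes are therefore no test of a set. The genotypes did not overlap in plain CPM for 3 of the 10 genes, against 12.7% of all genes tested. With the abundant noncoding RNAs left out of the library size, Smad7 overlapped, and Slc40a1 and Ftl1 joined Hamp2 and Id1 without overlap. The share of all genes was not counted on that scale. With neighbouring libraries summed, which leaves 2 samples a group, Hamp2 was still called (adjusted p = 0.0212) and Id1 was not (adjusted p = 0.197).

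In cerebellum, Tfrc fell and the other 7 genes tested did not pass. Neurons and brain endothelial cells take up transferrin iron through this receptor. Tfrc measured 79.3, 73.1, 80.5 and 78.6 CPM in WT and 61.9, 71.1, 60.1 and 70.6 CPM in KO. All KO libraries were below all WT libraries, KO 6 and 8 only by a little, and the log2 change was -0.25 ± 0.0566 (adjusted p = 0.0233). The call was lost in 5 of the 8 fits that left out a library, with an adjusted p of up to 0.0787, and with neighbours summed (adjusted p = 0.0905). Brain endothelial markers summed to 135 to 154 CPM in WT and 160 to 170 CPM in KO, in the opposite direction to Tfrc, with 1 of 5 called higher. Oligodendrocyte markers, at 2345 to 2826 CPM in WT and 2712 to 2917 CPM in KO, also had 1 of 5 called higher (Mag, 0.27, adjusted p = 0.0316, without overlap) and 4 at an unadjusted p under 0.05. Red cell markers moved in the same direction as Tfrc, at 7.85 to 8.92 CPM in WT and 3.74 to 7.12 CPM in KO. Of 3 tested, limma-voom called 1 lower, and edgeR and DESeq2 called 0. Markers of granule and Purkinje cells summed to 1466 to 1579 CPM in WT and 1321 to 1486 CPM in KO. Of those 4 neuronal markers, the granule cell genes Gabra6 (log2 change -0.26, adjusted p = 0.00556) and Neurod1 (-0.22, adjusted p = 0.00658) were called lower without overlap and the Purkinje cell gene Pcp2 higher (0.24, adjusted p = 0.0355). The part of these cell markers, and of the lower Y-linked sum given above, in the Tfrc values was not tested. Id1, Smad7, Bmp6, Slc40a1, Tfr2, Fth1 and Ftl1 had log2 changes between -0.14 and 0.19. So 1 of 8 genes tested was called, 0 higher and 1 lower, against 6.44% of 16225 genes (3.93% higher and 2.51% lower), with 2 of the 8 at an unadjusted p under 0.05, as were 3929 of all 16225 genes, and only Tfrc called by edgeR and DESeq2. Tfrc was also the only gene of the 8 without overlap, against 13.8% of all genes. Hamp and Hamp2 had at most 1 count in any cerebellum library and were not tested, and a library at 0 allows up to 3 counts, for counting error only.

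In testes, Slc40a1 rose and Tfr2 fell, at low levels. Slc40a1 measured 3.12, 2.76, 2.47 and 2.36 CPM in WT and 4.03, 4.14, 5.02 and 3.11 CPM in KO. KO 8 lay just under WT 1 and the other KO libraries were above, with a log2 change of 0.49 ± 0.15 (adjusted p = 0.0408). Tfr2 measured 3.43, 4.16, 3.98 and 3.55 CPM in WT and 2.3, 2.27, 3.03 and 3.25 CPM in KO. No KO library reached the lowest WT library, and the log2 change was -0.59 ± 0.145 (adjusted p = 0.0173). Tfrc did not overlap in CPM either, at 18.2 to 19.8 CPM in WT and 20.3 to 23.5 CPM in KO, but with the quantile-normalized values its log2 change was 0.08 ± 0.0658 (adjusted p = 0.419). Thus 2 of 8 genes tested were called, 1 higher and 1 lower, where 20.5% of 19329 genes were called (9.74% higher and 10.7% lower), and 2 of 8 did not overlap, where 28.6% of all genes did not. Cell markers moved with genotype in the same libraries. Sertoli cell markers summed to 832 to 986 CPM in WT and 1061 to 1549 CPM in KO with 4 of 5 called higher, and spermatid markers to 8678 to 9097 CPM in WT and 6114 to 8066 CPM in KO with 3 of 5 called lower. Their part in the Slc40a1 and Tfr2 values was not tested. The Slc40a1 call was lost in 7 of the 8 fits that left out a library (adjusted p up to 0.118), and Tfr2 in 1 of 8, without WT testes 3 (adjusted p = 0.0567). Both were lost with neighbours summed (adjusted p = 0.169 and 0.174), and Slc40a1 without the filter (adjusted p = 0.0812).

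**Figure D3:**
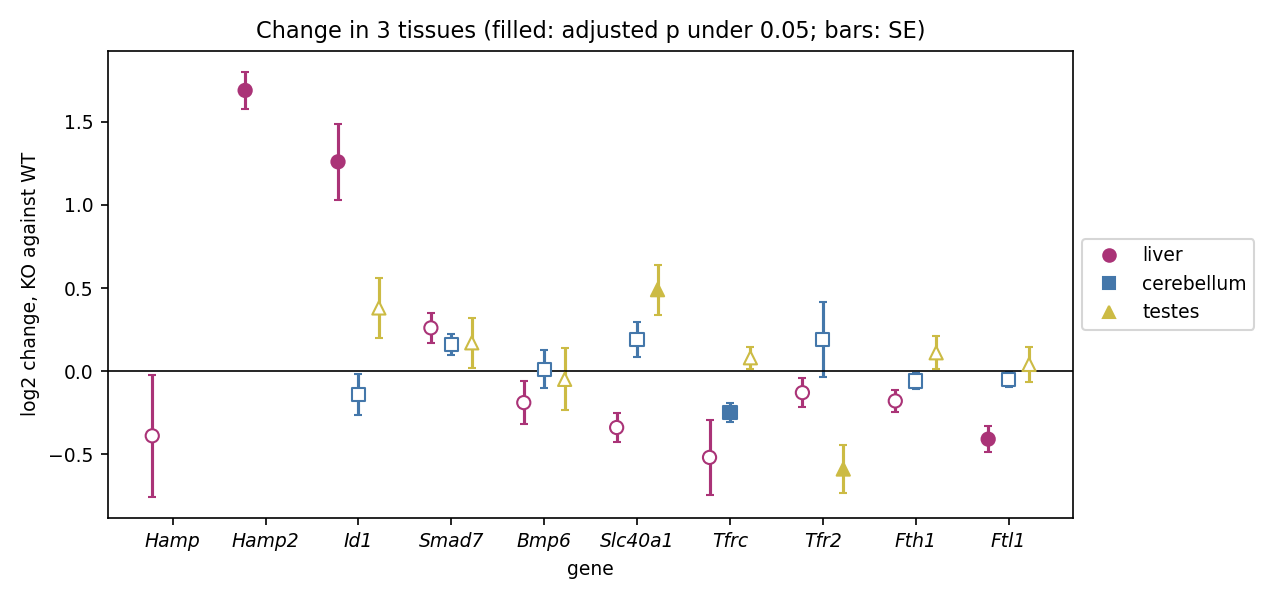
The log2 change of each gene, KO against WT, with its SE in liver (circles), cerebellum (squares) and testes (triangles), each from 4 libraries a group. Filled symbols are adjusted p under 0.05. Hamp and Hamp2 were tested in liver only, and Slc40a1, Tfrc, Fth1 and Ftl1 lie on opposite sides of 0 in liver and testes. Of these, only Ftl1 in liver and Slc40a1 in testes passed in those tissues.

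Whether the KO effect differed between tissues was tested over all 24 libraries. The effect on Id1 was larger in liver than in cerebellum by 1.39 ± 0.315 on the log2 scale (adjusted p = 0.0211), a call lost in 3 of the 8 fits that left out a replicate number (adjusted p up to 0.078) and with quantile normalization over all libraries (1.13, adjusted p = 0.0814). Against testes Id1 differed by 0.81 ± 0.379, which did not pass (adjusted p = 0.2). Slc40a1, with changes of -0.34 in liver and 0.49 in testes in the separate quantile-normalized fits, differed by -0.95 ± 0.291 in the TMM fit of all libraries (adjusted p = 0.0515). It was called with quantile normalization (-1.14, adjusted p = 0.0137), in edgeR (-0.97, adjusted p = 0.00385), with the replicate block (-0.96, adjusted p = 0.015) and without replicate number 8 (-1.13, adjusted p = 0.0448). Hamp2 passed both contrasts in limma-voom and neither in edgeR. It entered this fit only through liver and had at most 1 count in any cerebellum library and 5 in any testes library, so its KO effect there could not be measured and no difference is read from it. With Hamp2 included, 2 of 10 genes were called for liver against cerebellum and 1 of 10 for liver against testes, where 2.49% and 7.03% of 22678 genes were called. The 2 contrasts share the liver libraries.

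The 10 genes differed in where they were expressed, and the values that follow are WT means in CPM with their SD (n = 4). Hamp measured 196 ± 88.2 in liver and had 1 count in the 4 cerebellum libraries together and 4 in the 4 testes libraries together. Hamp2 had 1 and 10 counts there, so a low signal of Hamp2 in testes of 1 to 5 counts a library stood beside 5.72 ± 0.533 in liver. Tfr2 was 429 ± 32.4 in liver, 3.78 ± 0.346 in testes and 1.52 ± 0.252 in cerebellum. Slc40a1 went from 100 ± 18.2 in liver through 7.77 ± 0.61 in cerebellum to 2.68 ± 0.338 in testes. Ftl1 was 3495 ± 635 in liver, 120 ± 5.7 in cerebellum and 80.3 ± 5.52 in testes, and Fth1 588 ± 57.5, 285 ± 21.1 and 87.9 ± 8.15. The 5 genes Tfr2, Slc40a1, Ftl1, Fth1 and Hamp were thus highest in liver by far more than the spread.

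Tfrc was highest in cerebellum, with 77.9 ± 3.29 CPM against 19.1 ± 0.751 in testes and 12.8 ± 4.21 in liver. On the TMM scale of the 24-library fit, which shifts liver upward relative to plain CPM (TMM factors 0.588 to 0.654, against 1.36 to 1.43 in cerebellum and 1.14 to 1.23 in testes), Tfrc in liver and testes did not differ past the threshold (0.30 ± 0.146 log2, adjusted p = 0.0581), but it was called higher in liver with quantile normalization (0.52, adjusted p = 0.00186), in edgeR (0.35, adjusted p = 0.0211) and without WT replicate 3 of each tissue (0.53, adjusted p = 0.000782). All of these are opposite in direction to plain CPM, so the order of liver and testes rests on the scale. The scale also decides the order of the BMP genes. Id1 (3.97 ± 1.27 CPM in liver and 5.06 to 6.59 in cerebellum), Smad7 (26.6 ± 1.75 and 48.2 ± 2.41) and Bmp6 (7.87 ± 1.44 and 10.4 ± 1.82) were lower in liver by plain CPM. With TMM factors they were higher in liver, by 0.58 ± 0.231, 0.33 ± 0.0825 and 0.79 ± 0.15 log2, and with quantile normalization over all libraries the Smad7 difference did not pass (0.13, adjusted p = 0.199). The Id1 difference did not pass without replicate number 1, 2 or 3 (adjusted p = 0.0703, 0.101 and 0.0743). Their direction between liver and cerebellum therefore rests on the scaling. All 3 were lowest in testes on both scales, at 1.49 ± 0.281, 5.11 ± 0.314 and 3.09 ± 0.694 CPM.

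With TMM factors, 10 of 10 genes differed between WT liver and WT cerebellum (85.3% of all genes did), 9 of 10 between WT liver and WT testes (89.7%) and 8 of 10 between WT cerebellum and WT testes (89.3%). Hamp and Hamp2 are in these counts although they entered the fit only through liver. They had to differ from liver, and the call of Hamp2 between cerebellum and testes rests on 1 against 10 counts in all. These shares are near those of all genes. Without the filter on low counts, Ftl1 no longer passed between liver and cerebellum (6.09, adjusted p = 0.188) or testes (6.41, adjusted p = 0.162), nor Tfr2 between cerebellum and testes (-1.57, adjusted p = 0.184). The ratio of Ftl1 to Fth1 counts also differed between tissues, at 5.9 ± 0.557 in WT liver, 0.917 ± 0.0583 in WT testes and 0.42 ± 0.0199 in WT cerebellum, and its KO values were 5.1 ± 0.609, 0.875 ± 0.0393 and 0.427 ± 0.0202.

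**Figure D4:**
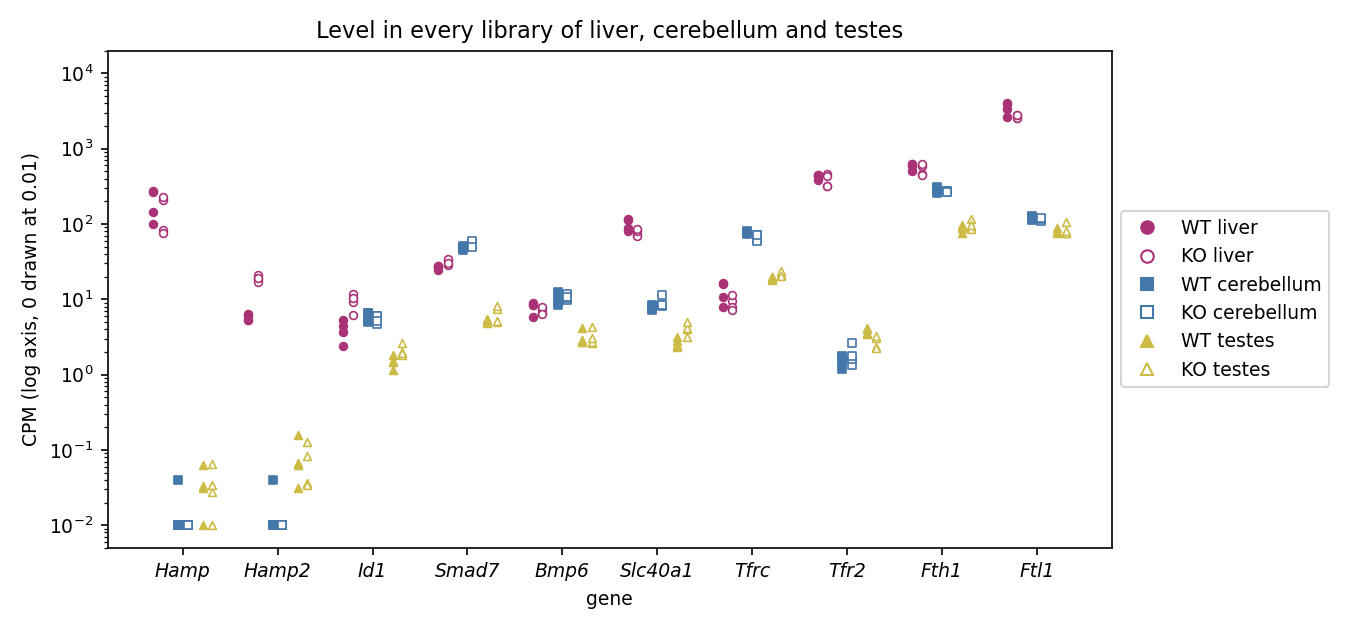
CPM of the 10 genes in all 24 libraries on a log axis, filled symbols WT and open symbols KO, 1 point per library with 0 drawn at 0.01. Read along each gene, Hamp, Hamp2, Tfr2, Slc40a1 and Ftl1 stand highest in liver and Tfrc in cerebellum.

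Of 20 genes of iron uptake and export beyond the receptors, 17 were tested in liver, 2 rose and 1 fell, where 5.91% of all genes were called, with a median log2 change of 0.14 against 0.00 for all genes. EdgeR and DESeq2 each called 4 of them, where they called 807 and 1408 of all 12816 genes. At an unadjusted p under 0.05 were 6 of the list, as were 2981 of all genes. Steap4, a ferrireductase induced in inflammation, rose, with a WT mean of 62 ± 4.21 CPM and a KO mean of 81.7 ± 6.65 CPM (0.43 ± 0.0547 log2 units, adjusted p = 0.00215), and Slc39a8, a zinc and iron importer, from 19.8 ± 1.87 to 23.8 ± 1.2 CPM (0.28 ± 0.0681, adjusted p = 0.0387). Steap3, the endosomal ferrireductase that works with transferrin receptor 1, fell from 33.2 ± 1.69 to 24.2 ± 1.31 CPM (-0.43 ± 0.069, adjusted p = 0.00611). The genotypes did not overlap for these 3 genes, nor for 12.7% of all genes. In testes 3 of 18 rose, where 9.74% of all genes rose and 20.5% were called, namely the ferroxidase Cp from 16.3 ± 2.39 to 26.5 ± 1.91 CPM, the ferritin receptor Scara5 from 42.9 ± 3.23 to 61.1 ± 7.86 CPM and the siderophore-binding Lcn2 from 148 ± 10.2 to 189 ± 27 CPM (adjusted p = 0.00258, 0.00721 and 0.0191 in limma-voom). These stood beside the rise of Sertoli markers given above. In cerebellum 0 of 12 were called by limma-voom, with 4 at an unadjusted p under 0.05, as were 3929 of all 16225 genes, and 1 called by edgeR and by DESeq2.

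Of the genes of storage and sensing, 1 of 14 tested in liver was called, where 5.91% of all genes were, with a list median of -0.03. EdgeR called 1 and DESeq2 4 of them, with 6 at an unadjusted p under 0.05, as were 2981 of all 12816 genes. The limma-voom call was Pcbp1, an iron chaperone that loads ferritin, with 188 ± 18.7 CPM in WT and 148 ± 15.5 CPM in KO (-0.32 ± 0.0626 log2 units, adjusted p = 0.0152). In cerebellum 3 of 14 fell, where 2.51% of all genes fell and 6.44% were called, and these 3 did not overlap between genotypes, against 13.8% of all genes. The list median was -0.06, edgeR called 3 and DESeq2 4 of the list, and the granule cell markers named above fell in the same libraries. Ireb2, iron regulatory protein 2, went from 144 ± 4.51 to 116 ± 7.96 CPM (-0.30 ± 0.0459, adjusted p = 0.00259), Ncoa4, the receptor for ferritin breakdown, from 92.2 ± 1.39 to 83.6 ± 2.69 CPM (-0.15 ± 0.0366, adjusted p = 0.0351), and Pcbp2, another iron chaperone, from 202 ± 2.31 to 183 ± 4.22 CPM (-0.13 ± 0.0315, adjusted p = 0.0316). Ireb2 encodes one of the proteins that bind the Tfrc hairpins shown above. In testes 1 of 15 was called, where 20.5% of all genes were, with a list median of 0.08, and edgeR called 3 and DESeq2 6. The limma-voom call was the mitochondrial ferritin Ftmt, from 50 ± 0.869 to 41.6 ± 3.36 CPM (-0.34 ± 0.076, adjusted p = 0.0116). The spermatid markers Prm1 (-0.27) and Prm2 (-0.28) were called lower in the same libraries, and their part in the Ftmt value was not tested. Pcbp1 and Pcbp2 share 75 and 1702 exonic bases with genes on the opposite strand and are uncertain for that reason.

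Of 25 genes of heme and iron-sulfur cluster synthesis, all tested in each tissue, 3 fell in liver and 0 rose, where 5.91% of all genes were called and 3.12% fell. In this list 7 of 25 were at an unadjusted p under 0.05, as were 2981 of all 12816 genes, and its median log2 change was -0.13 against 0.00 for all genes. Slc25a37, the mitochondrial iron importer mitoferrin 1, fell from 50.8 ± 7.39 to 39.7 ± 1.92 CPM (adjusted p = 0.0275), Abcb10, which works with it, from 43.9 ± 5.36 to 36.3 ± 0.547 CPM (0.0476) and Ciapin1, an early factor of cytosolic cluster assembly, from 24.7 ± 3.99 to 18.1 ± 2.6 CPM (0.0483). All 3 share exonic bases with a gene on the opposite strand and are uncertain for that reason, and edgeR called 2 and DESeq2 6 of the 25 genes, where they called 807 and 1408 of all 12816 genes. In cerebellum 0 were called by limma-voom, edgeR or DESeq2, with 2 at an unadjusted p under 0.05. In testes Alas1, the first enzyme of heme synthesis, fell from 118 ± 8.46 to 101 ± 7.6 CPM (adjusted p = 0.0425), 1 call of 25 where 20.5% of all genes were called. Alas1 shares 465 exonic bases with a gene on the opposite strand and is uncertain too.

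In testes 4 of 19 genes of the BMP and SMAD list rose and 4 fell, where 9.74% of all genes rose and 10.7% fell. EdgeR called 9 and DESeq2 10 of them. The shifts of Sertoli and spermatid markers given above are in these libraries, and their part in the values was not tested. Bmp4 rose, with a WT mean of 0.854 ± 0.215 CPM and a KO mean of 1.82 ± 0.17 CPM (0.98 ± 0.181 log2 units, adjusted p = 0.00602) and the hemojuvelin receptor Neo1 from 71 ± 5.05 to 97.7 ± 17.9 CPM (adjusted p = 0.0243). Smad6 fell from 14.6 ± 1.49 to 11.8 ± 1.4 CPM (adjusted p = 0.0228), as in liver, and the BMP-induced transcription factor Atoh8 from 119 ± 3.48 to 90.5 ± 2.41 CPM (adjusted p = 0.00184). In cerebellum 0 of 19 were called by limma-voom or edgeR and 1 by DESeq2, with 5 at an unadjusted p under 0.05, where 3929 of all 16225 genes were. Il6st, the shared receptor subunit through which interleukin 6 reaches Hamp, rose in cerebellum from 161 ± 5.14 to 186 ± 3.22 CPM (adjusted p = 0.00262) and in testes from 42 ± 1.33 to 57.2 ± 9.71 CPM (adjusted p = 0.0248), the single call of limma-voom among 7 tested regulators in each, where 6.44% and 20.5% of all genes were called. EdgeR and DESeq2 each called 1 of the 7 in cerebellum and 3 in testes. Bmp4 and, among the uptake genes, Cp share 89 and 108 exonic bases with genes on the opposite strand and are uncertain for that reason.

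**Figure D5:**
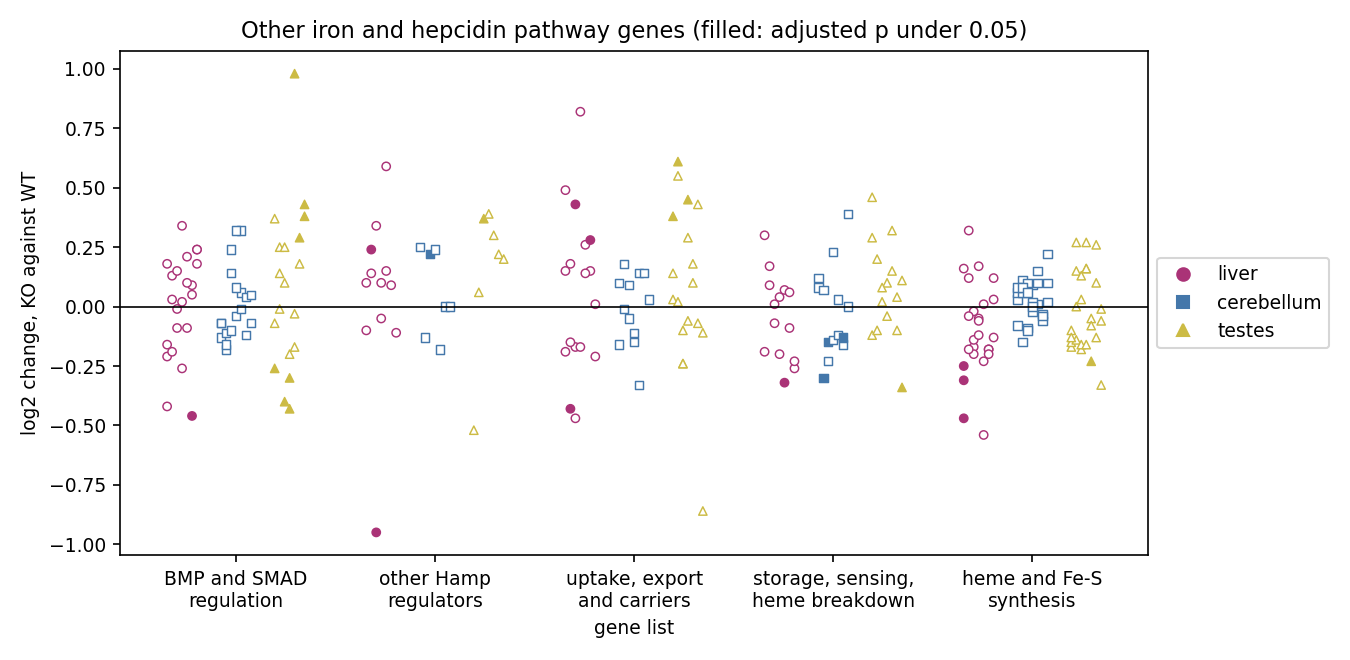
The log2 change, KO against WT, of every tested gene of 5 iron and hepcidin lists, 1 symbol per gene and tissue, filled where the adjusted p is under 0.05. Most symbols are open in each tissue, with Socs3 lowest in liver at -0.95 and Bmp4 highest in testes at 0.98.

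The pattern of Hamp over the 8 liver libraries, high in WT 1 and 2 and KO 7 and 8, was matched most closely by 3 other genes. Likeness was the root mean square difference of centred log2 CPM, computed for 11578 genes, as a description with no test. Acot3, an acyl-CoA thioesterase of peroxisomes, came closest at 0.14, with 9.65, 9.99, 5.63 and 3.49 CPM in WT and 2.4, 3.06, 7.57 and 7.24 CPM in KO. Plin4, a lipid droplet protein, followed at 0.22 with 35.2, 30.8, 14.1 and 12.9 CPM in WT and 12.5, 10.6, 23.3 and 21.6 CPM in KO. Pprc1, a coactivator of mitochondrial gene expression, was at 0.23 with 19.2, 19.4, 10.8 and 8.71 CPM in WT and 9.57, 7.22, 19.5 and 18.6 CPM in KO.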

How the data were processed

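Total RNA depleted of ribosomal RNA was made into libraries with a stranded kit and sequenced as paired ends, and the authors deposited 1 table of RSEM expected counts per gene for 24 libraries, aligned with STAR to mm10 with GENCODE M21. Tool versions and the strand setting of the counting are not given in the sources used here. Between 12.3% and 16.6% of nonzero values were not whole (tolerance 0.001). Each symbol is the part of the gene identifier after its first "_".

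Libraries were grouped by their labels. Within each tissue, genes with at least 1 CPM in at least 4 of 8 libraries were quantile-normalized and fitted with limma-voom (limma 3.58.1, R 4.3.3), KO against WT. P-values were adjusted over all genes by Benjamini-Hochberg, and called means adjusted p under 0.05. Differences between tissues came from 1 fit of all 24 libraries with TMM factors (edgeR 4.0.16). Single values were compared with exact permutation tests, two-sided (SciPy 1.17.1). Likeness to Hamp used log2 of CPM plus 0.1. The members and gene lists were chosen with earlier results of these data known. From each list, up to 4 called genes per tissue are named, chosen by the size of their change.

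Alternatives were TMM, edgeR and DESeq2 (1.42.0) on rounded counts, no filter, sample weights, abundant noncoding RNAs left out, copies summed, a replicate block and each library left out. Summing neighbouring libraries was chosen after seeing the data. On simulated data the liver fit recovered 61.3%, 88.4% and 98.6% of genes changed 1.5-, 2- and 3-fold among 12735 genes, with 11 false calls. Each simulated library was drawn independently from a single mean profile of its tissue. The likeness of neighbouring libraries was not simulated, so these rates need not hold for the real libraries. Depth was 16353797 to 37889615 counts per library. The coding sequences of Hamp and Hamp2 are not reported here.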

Additional observations from a re-analysis of the deposited data

Results flagged for a closer look

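Within groups of 4 libraries, 4 values stood apart from the other 3 by the gap to the nearest library over the range of the group. Bmp6 was 5.74 CPM in WT liver 4, where the others were 8.37 to 8.9 CPM. It was 4.13 CPM in WT testes 2, where the others were 2.68 to 2.86 CPM. Slc40a1 was 11.4 CPM in KO cerebellum 6 against 8.2 to 8.48 CPM, and Thumpd1 was 24 CPM in WT cerebellum 4 against 21.8 to 22.1 CPM. Of 59 groups examined these were 4, and chance gives about 1 in 20.

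The KO effect on Id1 was higher in liver than in cerebellum by 1.39 log2 units, by a test of the difference itself (adjusted p = 0.0211 in limma-voom). For Hamp2 the fitted difference was 1.86 log2 units against cerebellum (adjusted p = 0.00691) and 1.86 against testes (adjusted p = 0.0123). Hamp2 was at or near 0 counts outside liver, and edgeR called it in neither contrast, so these 2 values are not read as a difference between tissues.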

How the results depend on the processing

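In liver 3 genes were called, against 1 (Hamp2) with neighbouring libraries summed, 5 with sample weights, which added Slc40a1 and Tfrc, and 2 to 4 with single libraries left out. The cerebellum call (1 gene) became 0 with neighbours summed and 0 to 1 with libraries left out. The 2 testes calls became 1 without the filter, 0 with neighbours summed and 0 to 2 with libraries left out. Under sample weights the testes values of Smad7, Fth1 and Ftl1 turned to -0.03, -0.02 and -0.07. For the effect in liver minus cerebellum (2 called), quantile normalization called 1, keeping Hamp2 and losing Id1 (1.13, adjusted p = 0.0814), edgeR called 1, keeping Id1 and losing Hamp2, and leaving out replicate numbers 1 to 2. For liver minus testes (1 called), quantile normalization called 3, edgeR 2 (Slc40a1 and Tfrc, without Hamp2) and left-out numbers 1 to 2, and Smad7 was 0.03 without the filter. The cause was not tested. With libraries left out, values changed sign for Bmp6 in cerebellum (-0.08 to 0.11) and testes (-0.21 to 0.10), Tfr2 in cerebellum (-0.02 to 0.33), Ftl1 in testes (-0.08 to 0.09) and Smad7 in liver minus testes (-0.15 to 0.09). The Hamp2 share differed by 7.99 to 12.7 percentage points, with an exact permutation p of 0.0571, the smallest that 3 against 4 libraries can give.

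Over all genes, the liver fit called 757, against 492 without the filter, 1408 in DESeq2, 1705 with weights, 11 with neighbours summed and 284 to 795 with libraries left out. Cerebellum had 1045, against 628, 1757 with weights, 47 summed and 417 to 2317, and testes 3957, against 6107 with weights, 2 summed and 1711 to 4913.

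Same-numbered libraries of different tissues correlated between -0.21 and 0.20, with 10 of 24 pairs over 0.1. Libraries with different numbers were not correlated for comparison, so these values cannot decide whether the numbers mark shared animals. The main fit did not use the numbers as pairing. With the replicate block, liver minus testes called 3, adding Slc40a1 (-0.96, adjusted p = 0.015) and Ftl1 (-0.43, adjusted p = 0.0223), and Ftl1 was called between WT cerebellum and WT testes (0.31, adjusted p = 0.00128).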
